A study of Penicillium oxalicum with 12 samples.

Results

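The carbon-source response of the *Podot1* deletion strain was described by setting the 3 libraries titled as this strain in cellulose medium against its 3 libraries in glucose medium. These are 6 of the 12 libraries of the series, chosen by title, and the other 6 hold the wild type (WT) strain 114-2 of *Penicillium oxalicum* in the same media. Δ*Podot1* was made from WT by replacing the coding region of *Podot1* with the hygromycin resistance gene *hph*, and both of its groups carry this deletion by their labels. Mycelia were precultured in 2% glucose and washed, and were then kept at 30°C for 24 h in medium with 1% cellulose and 1% wheat bran or in medium with 2% glucose. The cellulose medium therefore differs from the glucose medium by wheat bran as well as by cellulose, and effects of these 2 components cannot be told apart. The paper describes the 3 libraries of a group as biological replicates. Each library holds an estimated read count per gene and a level in FPKM (fragments per kilobase of transcript, scaled to the library's mapped reads), and a gene that a table does not list was taken as 0.

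*P. oxalicum* is a filamentous fungus that feeds on plant litter by secreting enzymes that cut cellulose, xylan and starch into sugars. In such fungi glucose represses the genes of these enzymes, a regulation known as carbon catabolite repression, and small sugars released from cellulose induce them. *Po*Dot1 is the enzyme that methylates a lysine in the core of histone H3, and the comparison shows which genes change with the medium in libraries labelled as lacking it. In bulk mycelium a change in the RNA of each hypha and a change in the share of hyphae that express a gene cannot be told apart.

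The targeted gene, *Podot1* (PDE_07484), goes against the label of cellulose replicates 1 and 2. Its estimated counts were 341, 613 and 0 in cellulose replicates 1, 2 and 3, against 0, 1 and 2 in the glucose libraries of the strain. As levels these were 33.4 and 58.4 FPKM and no listed value in cellulose, against no listed value, 0.10 and 0.19 FPKM in glucose. The 6 WT libraries had 25.8 to 36.4 FPKM, so cellulose replicate 1 lay inside and replicate 2 above the WT range, and only replicate 3 lacked the transcript. The summed counts were 954 in cellulose and 3 in glucose. Scaled to equal depth their ratio was 321 (exact 95% limits 110 and 1560, which cover counting error only). Directions given for cellulose medium therefore rest on the labels, and values are also given without replicate 2 and in part for replicate 3 alone.

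**Figure D1:**
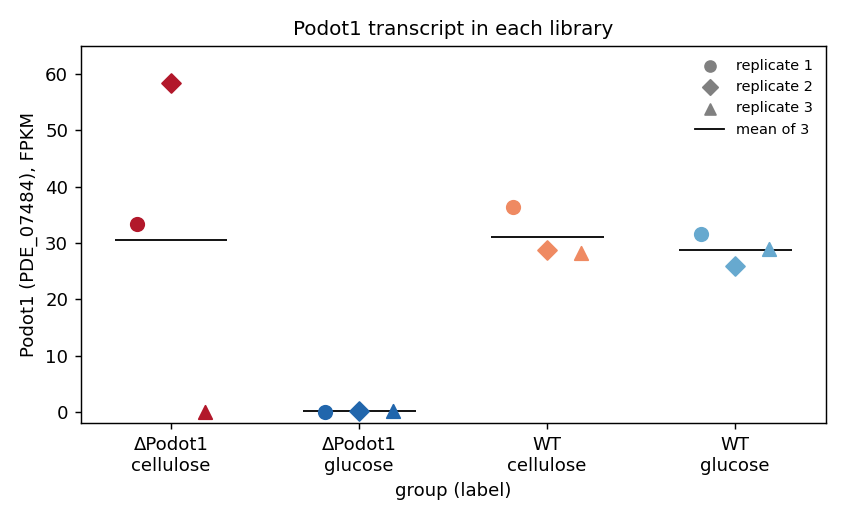
*Podot1* (PDE_07484) in FPKM in each of the 12 libraries, by labelled group, with the mean of 3 as a line. Cellulose replicates 1 and 2 labelled Δ*Podot1* lie at 33.4 and 58.4 FPKM, inside and above the range of the WT libraries, whereas replicate 3 and the glucose libraries of the strain lie at 0 to 0.19 FPKM.

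Cellulose replicate 2 also stood apart in its whole profile. Over the 9274 genes that averaged 1 FPKM or more, the Pearson correlation of log2(FPKM + 1) between this library and the Δ*Podot1* glucose libraries was 0.884 to 0.924, and it was 0.657 and 0.644 with cellulose replicates 1 and 3. Cellulose replicates 1 and 3 correlated at 0.899 with each other and the glucose pairs at 0.954 to 0.980, where the points are genes of the same libraries and no test applies. On the first principal component of the 6 libraries, with 71.5% of the variance, cellulose replicates 1 and 3 lay at -103.3 and -96.9, replicate 2 at 28.9, and the glucose libraries at 53.9 to 61.6. The second component, with 16.1%, set replicate 2 at -60.4, away from the glucose libraries at 9.0 to 23.4 and from cellulose replicate 3 at 39.8. The total estimated count was similar in all 6 libraries, at 6473469 to 6676239.

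**Figure D2:**
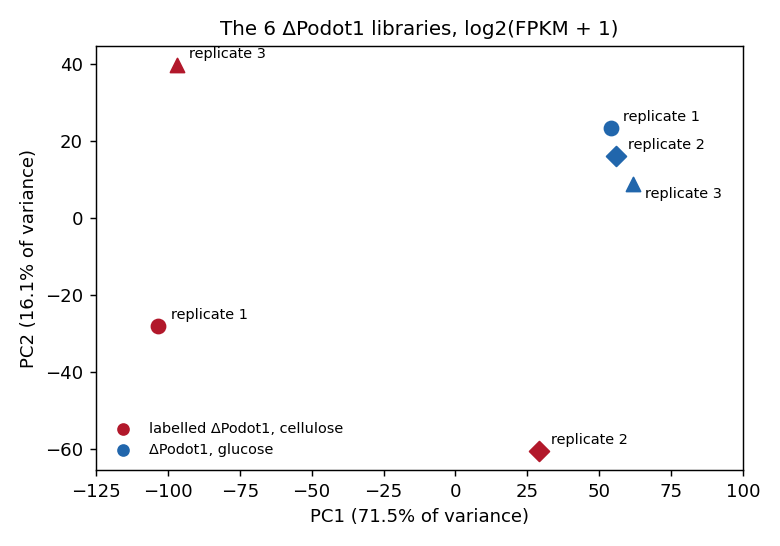
The leading 2 principal components of log2(FPKM + 1) over 9225 genes for the 6 libraries, with the share of variance on each axis. Cellulose replicates 1 and 3 lie to the left at -103.3 and -96.9, whereas replicate 2 lies at 28.9 on the side of the glucose libraries and is the lowest on the second component.

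Across all genes the response to cellulose medium was mainly an increase. Of 9088 genes tested, 1575 (17.3%) were called, of which 1215 (13.4%) rose and 360 (3.96%) fell in cellulose relative to glucose (edgeR's quasi-likelihood test, Benjamini-Hochberg adjusted p under 0.05 and at least a 2-fold change). This fit takes the spread from all 12 libraries, and with the 6 libraries of the strain alone the same test called 163 genes, 124 higher and 39 lower. The median log2 fold change was 2.76 among the genes that rose and -1.84 among those that fell, against 0.07 over all genes tested. A change of at least 10-fold was reached by 458 of the genes that rose and by 30 of those that fell. Without cellulose replicate 2 the number called was 3185 of 9139 (34.9%), with 1870 higher (20.5%) and 1315 lower (14.4%). Leaving out cellulose replicate 1 moved the count to 838. Without glucose replicate 1, 2 or 3 it was 889, 818 and 997. Without cellulose replicate 3, the only cellulose library that lacked *Podot1* reads, it was 1623 (1321 higher, 302 lower), near the count with all libraries. The share of calls that were higher was 77.1% with all libraries and 58.7% without replicate 2. Of the genes called with all libraries, 1187 of the 1215 higher and 352 of the 360 lower were called in the same direction without it, which are 63.5% and 26.8% of the calls made without it.

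The position of replicate 2 differed between the 2 directions. Among the 1870 genes called higher without it, replicate 2 lay above all 3 glucose libraries in 1252 (67%), inside their range in 461 and below it in 157. Among the 1315 genes called lower without it, it lay below the glucose libraries in 471 (35.8%), inside their range in 403 and above it in 441 (33.5%). Over all 9139 genes tested these shares were 48.6% above, 30.4% inside and 21.1% below. Replicate 2 thus lay on the side of the call more often than over all genes tested, at 67% beside 48.6% for higher and 35.8% beside 21.1% for lower. Most of the genes called lower still had replicate 2 inside or above the glucose range, as did most genes tested. With replicate 3 as the only cellulose library, which is also the only one without *Podot1* reads, 2824 of 9216 genes (30.6%) were called, 1561 higher and 1263 lower, under the assumption that this lone library varies like the other groups. Of the genes called with all libraries, 964 that rose and 299 that fell were called alike in replicate 3 alone, and 1 was called in the opposite direction.

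All 10 genes of the main extracellular glycoside hydrolases of the *P. oxalicum* secretome rose in cellulose medium, with log2 fold changes of 2.83 to 7.23 and adjusted p of 0.00509 to 0.0286 (edgeR). The median log2 fold change of the list was 6.06, beside 0.07 over all genes tested. Of all genes tested 13.4% were called higher with all libraries and 20.5% without replicate 2. Their summed level made up 1.82%, 0.0297% and 2.26% of all FPKM in cellulose replicates 1, 2 and 3, against 0.0224%, 0.0204% and 0.0225% in glucose. The average of replicates 1 and 3 was 11 to 247 times the glucose mean, and replicate 2 was 0.915 to 2.73 times that mean. The increase was thus carried by replicate 1, which has *Podot1* reads, and by replicate 3, which has none, while replicate 2 stayed near the glucose level. All 10 genes were also called higher without replicate 2, with replicate 3 alone and by DESeq2. With edgeR on the 6 libraries of the strain alone the log2 fold changes were 2.85 to 7.25, but none of the 10 was called (adjusted p of 0.0611 to 0.0965, with 10 at an unadjusted p under 0.05). Of the 10 genes 9 were called without cellulose replicate 1, cellulose replicate 3, glucose replicate 1 or glucose replicate 3, and 7 without glucose replicate 2. Each of the 10 thus lost its call under at least 1 alternative, while all log2 fold changes stayed above 0.

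Cellobiohydrolases release cellobiose from the ends of cellulose chains. The *cel7A*/*cbh1* gene (PDE_07945), for the main one, had 3424, 57.7 and 7219 FPKM in cellulose replicates 1, 2 and 3, against 44.7, 37.2 and 43.7 FPKM in glucose. All 3 cellulose libraries were above all 3 glucose libraries, and the log2 fold change was 6.30 (SE, the standard error, 1.29, adjusted p = 0.00673, edgeR), or 6.88 (adjusted p = 8.96e-07) without replicate 2. The *cel6A*/*cbh2* gene (PDE_07124) had 1235, 27.3 and 3665 FPKM in cellulose, against 20.4, 18.4 and 20.9 FPKM in glucose. Its cellulose libraries were also all above the glucose libraries, with a log2 fold change of 6.26 (SE 1.28, adjusted p = 0.00673). As for *cel7A*, replicate 3 held the highest level and replicate 2 lay just over the glucose range.

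Endoglucanases cut inside the cellulose chain. The *cel5B*/*eg2* gene (PDE_09226) had 930, 12.6 and 1620 FPKM in cellulose, against 8.46, 9.04 and 9.36 FPKM in glucose, a log2 fold change of 6.46 (SE 1.24, adjusted p = 0.00521, edgeR). The *cel7B*/*eg1* gene (PDE_07929) had 280, 18.2 and 802 FPKM in cellulose, against 18.2, 14.1 and 14.1 FPKM in glucose, with a log2 fold change of 4.46 (SE 0.961, adjusted p = 0.00847). Here replicate 2 equalled the highest glucose library to 3 digits, so the groups touched. The *cel61A* gene (PDE_05633) encodes a lytic polysaccharide monooxygenase, which opens cellulose chains by oxidation. It had 361, 2.75 and 195 FPKM in cellulose, against 2.23, 3.89 and 1.65 FPKM in glucose, and replicate 2 lay inside the glucose range (log2 fold change 6.04, SE 1.23, adjusted p = 0.00658).

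β-Glucosidase splits cellobiose into glucose. The *cel3A*/*bgl1* gene (PDE_02736) had 131, 18 and 149 FPKM in cellulose, against 4.86, 7.05 and 7.83 FPKM in glucose (log2 fold change 3.78, SE 0.719, adjusted p = 0.00509, edgeR). Of the 10 genes this one was raised most in replicate 2, which still lay far below replicates 1 and 3. The xylanase gene *xyn10A* (PDE_08094) had 145, 4.11 and 218 FPKM in cellulose, against 2.34, 1.32 and 1.30 FPKM in glucose (log2 fold change 6.09, SE 1.21, adjusted p = 0.00609). The chitinase gene *chi18A* (PDE_08122), whose product cuts chitin, had 6360, 14.5 and 1480 FPKM in cellulose, against 17.1, 13.7 and 16.8 FPKM in glucose, with a log2 fold change of 7.23 (SE 1.58, adjusted p = 0.00911). It was the only one of the 10 in which replicate 2 was below the glucose mean, and with *cel61A* one of 2 in which replicate 1 exceeded replicate 3.

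The amylase genes, whose products degrade starch, rose least among the 10. Glucoamylase *amy15A* (PDE_09417) had 353, 56.3 and 592 FPKM in cellulose, against 40.3, 42.4 and 46.4 FPKM in glucose, a log2 fold change of 2.83 (SE 0.790, adjusted p = 0.0286, edgeR). The α-amylase gene *amy13A* (PDE_01201) had 67.2, 6.85 and 135 FPKM in cellulose, against 5.69, 4.28 and 5.11 FPKM in glucose (log2 fold change 3.67, SE 0.827, adjusted p = 0.0105). In both genes the groups did not overlap. In 7 of the 10 glycoside hydrolase genes all 3 cellulose libraries were above all 3 glucose libraries, as they were in 21.9% of all genes tested, with the opposite order in 8.89%. Replicates 1 and 3 were above all glucose libraries in all 10, beside 35% of all genes tested, with 26.5% below. An exact permutation test (two-sided) of 3 libraries against 3 cannot go below p = 0.1, which is its value for each gene without overlap.

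**Figure D3:**
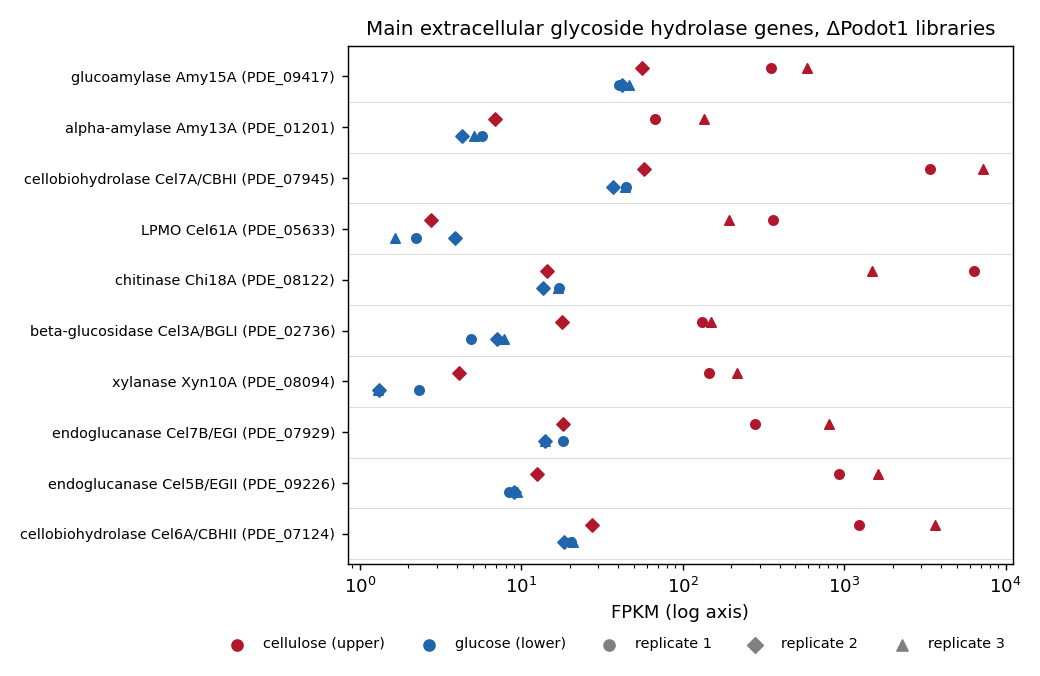
FPKM on a log axis of the 10 main extracellular glycoside hydrolase genes in the 3 cellulose libraries (upper points) and the 3 glucose libraries (lower points), with the marker giving the replicate. The average of cellulose replicates 1 and 3 is 11 to 247 times the glucose mean, whereas replicate 2 lies near the glucose libraries in every gene.

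Of 21 other genes for polysaccharide-degrading enzymes, 9 rose and none fell with all libraries, beside 13.4% and 3.96% of all genes. Without cellulose replicate 2, 10 were called higher, beside 20.5%, and 3 lower, a share near the 14.4% of all genes, and with replicate 3 alone 11 were called higher and 3 lower. These genes, and those of most lists below, were taken from the paper's tables of genes that differed between the strains in these libraries. The largest increases were in 2 endoglucanase genes. PDE_00507 had 92.3, 8.58 and 242 FPKM in cellulose, against 2.94, 3.41 and 3.09 FPKM in glucose (log2 fold change 5.07, SE 0.916, adjusted p = 0.00423, edgeR). PDE_07928 had 266, 8.05 and 496 FPKM in cellulose, against 8.17, 6.71 and 7.35 FPKM in glucose (log2 fold change 5.0, SE 1.02, adjusted p = 0.00657), and its replicate 2 lay inside the glucose range. Among the 3 called lower, PDE_03711, a putative endo-β-1,4-glucanase, had 24.2, 256 and 32.8 FPKM in cellulose, against 338, 371 and 438 FPKM in glucose, and it was called lower only without replicate 2 (log2 fold change -3.87, adjusted p = 7.05e-05).

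Among 7 further genes of starch and glycogen use, 2 rose and 1 fell, both with all libraries and without replicate 2. The shares of all genes were 13.4% and 3.96% with all libraries and 20.5% and 14.4% without replicate 2. PDE_01354, an α-amylase-like protein with a starch-binding domain, had 957, 39.1 and 1277 FPKM in cellulose, against 22.4, 25 and 18.3 FPKM in glucose (log2 fold change 5.0, SE 1.08, adjusted p = 0.0084, edgeR). The α-glucosidase gene PDE_04151, for an enzyme that releases glucose from maltose and similar sugars, had 106, 13.1 and 79.5 FPKM in cellulose, against 4.80, 5.47 and 4.04 FPKM in glucose (log2 fold change 3.67, SE 0.622, adjusted p = 0.00329). Another α-amylase gene, PDE_04683, went the other way with 14.6, 56.8 and 12.5 FPKM in cellulose, against 87.8, 84.1 and 86.8 FPKM in glucose (log2 fold change -1.82, SE 0.494, adjusted p = 0.0251). Here too replicate 2 was between the other cellulose libraries and the glucose libraries.

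Sugar transporter genes moved in both directions. Of the 15 genes listed 8 rose and 2 fell, with a median log2 fold change of 2.10, and 9 were called higher and 5 lower both without replicate 2 and with replicate 3 alone. The shares of all genes were 13.4% and 3.96% with all libraries and 20.5% and 14.4% without replicate 2. Their summed level was 11297, 1380 and 11751 FPKM in cellulose, against 2550, 2283 and 1326 FPKM in glucose. The cellodextrin transporter gene *cdt-c* (PDE_00607), whose product brings the short glucose chains cut from cellulose into the cell, had 4253, 26.3 and 5568 FPKM in cellulose, against 21.0, 16.2 and 17.8 FPKM in glucose. Its cellulose libraries were all above the glucose libraries, with a log2 fold change of 7.37 (SE 1.44, adjusted p = 0.00551, edgeR). A sugar:H+ symporter gene, PDE_03475, was of the same size, with 4029, 34.4 and 3535 FPKM in cellulose, against 21.7, 16.6 and 22.3 FPKM in glucose (log2 fold change 6.84, SE 2.10, adjusted p = 0.041).

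The 2 transporter genes that fell with all libraries were less uniform in glucose. PDE_07871 had 5.55, 10.7 and 2.92 FPKM in cellulose, against 119, 54.7 and 6.01 FPKM in glucose (log2 fold change -3.38, SE 0.851, adjusted p = 0.0178, edgeR). PDE_06397 had 124, 190 and 92.5 FPKM in cellulose, against 1183, 1082 and 185 FPKM in glucose (log2 fold change -2.74, SE 0.657, adjusted p = 0.0143). In both sugar:H+ symporter genes glucose replicate 3 overlapped the cellulose libraries. PDE_03140, called lower only without replicate 2 (log2 fold change -6.64, adjusted p = 4.15e-06), had 10.2, 641 and 6.72 FPKM in cellulose, against 829, 712 and 765 FPKM in glucose.

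Of 11 genes of glycolysis and gluconeogenesis 1 rose and 1 fell with all libraries, which is near the share of all genes called (17.3%). Without cellulose replicate 2, and likewise with replicate 3 alone, 1 was called higher and 6 lower, beside 14.4% and 13.7% of all genes called lower. Phosphoenolpyruvate carboxykinase (PDE_08878), the first committed enzyme of glucose synthesis, had 2468, 484 and 2219 FPKM in cellulose, against 155, 209 and 240 FPKM in glucose (log2 fold change 2.96, SE 0.686, adjusted p = 0.0123, edgeR). 6-Phosphofructokinase (PDE_01271), which commits sugar to glycolysis, had 29.7, 110 and 45.6 FPKM in cellulose, against 232, 170 and 130 FPKM in glucose (log2 fold change -1.70, SE 0.448, adjusted p = 0.0221). In both genes the groups did not overlap and the cellulose replicate nearest to glucose was replicate 2. Pyruvate decarboxylase (PDE_04873), an enzyme of ethanol fermentation, had 77.0, 1539 and 55.6 FPKM in cellulose, against 735, 1327 and 1622 FPKM in glucose, and was called only without replicate 2 (log2 fold change -4.35, adjusted p = 2.87e-05).

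Of 17 genes of pyruvate oxidation, the citric acid cycle and the glyoxylate and methylcitrate pathways, 1 fell with all libraries, beside 3.96% of all genes. Without replicate 2, 9 were called lower and none higher, beside 14.4% and 20.5% of all genes. With replicate 3 alone the median log2 fold change of the list was -1.17. The one that fell was methylisocitrate lyase (PDE_06062), which takes part in the use of propionate. It had 20.4, 18.7 and 9.95 FPKM in cellulose, against 474, 678 and 756 FPKM in glucose, a log2 fold change of -5.46 (SE 0.763, adjusted p = 0.00142, edgeR). In this gene replicate 2 was as low as the other cellulose libraries. None of 24 respiratory chain genes was called with all libraries by edgeR or DESeq2, and 1 had an unadjusted p under 0.05 with edgeR. Without replicate 2, 20 were called lower, beside 14.4% of all genes tested, and 13 were with replicate 3 alone. Their median ratio to the glucose mean was 0.341 in cellulose replicates 1 and 3 and 1.30 in replicate 2. Cytochrome c (PDE_08701), the electron carrier, had 403, 1475 and 336 FPKM in cellulose, against 964, 1192 and 1442 FPKM in glucose (log2 fold change -1.83 without replicate 2, adjusted p = 0.00633). None of the 20 ribosomal protein genes was called with all libraries by edgeR, with 2 at an unadjusted p under 0.05 and 1 called lower by DESeq2. Without replicate 2, 2 were called lower, beside 14.4% of all genes. The median log2 fold change of the list was -0.51 with all libraries and -0.64 without replicate 2.

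**Figure D4:**
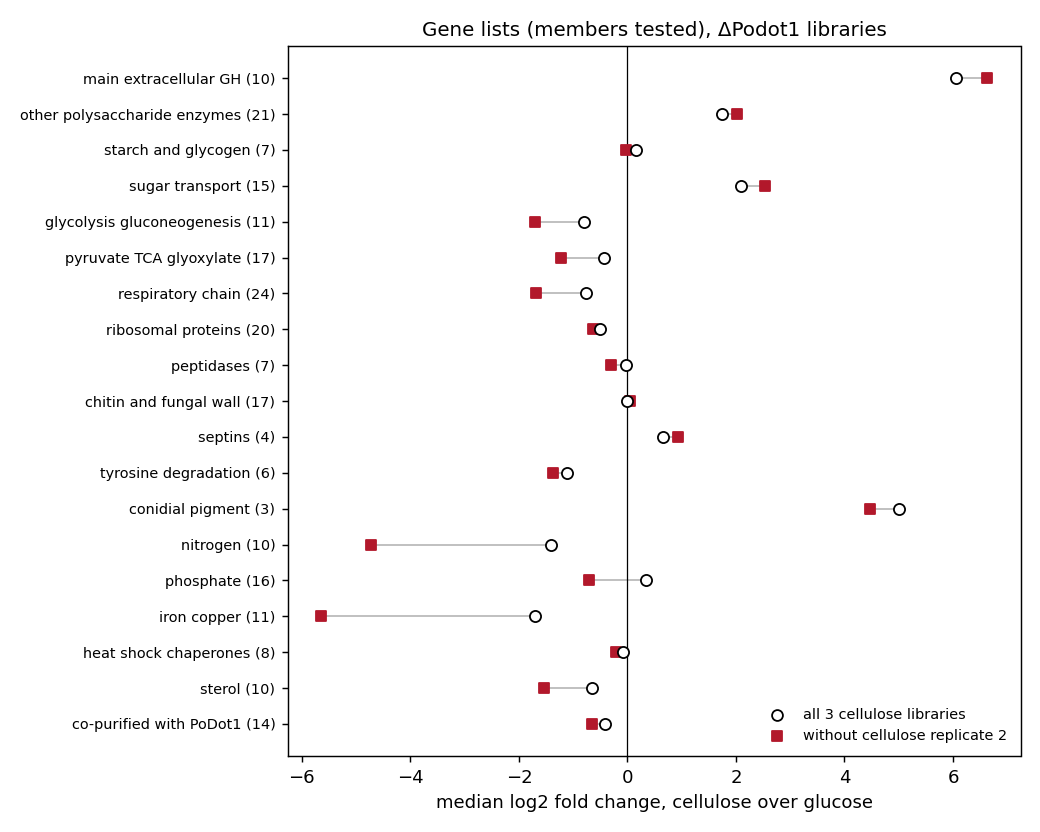
Median log2 fold change of each gene list, cellulose over glucose, with all 3 cellulose libraries (open circles) and without cellulose replicate 2 (squares), with the number of members tested in parentheses. The list of the main extracellular glycoside hydrolases lies at 6.06 and 6.63, whereas the nitrogen list lies at -1.41 and -4.73 and the iron and copper list at -1.70 and -5.64.

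Most nitrogen assimilation genes were low in cellulose replicates 1 and 3. In replicate 2 the median of the 10 genes was 1.07 times the glucose mean, with a range of 0.145 to 2.03. None of the 10 genes was called with all libraries by edgeR, with 2 at an unadjusted p under 0.05 and 1 called lower by DESeq2. Without replicate 2, 8 were called lower and 1 higher, beside 14.4% and 20.5% of all genes. The median log2 fold change of the list was then -4.73, beside 0.07 over all genes tested. Nitrate reductase (PDE_00369), which reduces nitrate to nitrite, had 8.02, 710 and 2.46 FPKM in cellulose, against 492, 542 and 1051 FPKM in glucose (log2 fold change -7.20 without replicate 2, adjusted p = 1.81e-04, edgeR). Nitrite reductase (PDE_00370), the next step to ammonium, had 21.1, 2219 and 6.47 FPKM in cellulose, against 1462, 1637 and 2881 FPKM in glucose (log2 fold change -7.33 without replicate 2, adjusted p = 9.37e-06). In both genes replicate 2 lay inside the glucose range. With all libraries their log2 fold changes were -1.78 and -1.66, with adjusted p of 0.42 and 0.441. Glutamate dehydrogenase GdhA (PDE_06117) had 18.3, 1162 and 15.1 FPKM in cellulose, against 402, 461 and 856 FPKM in glucose, so replicate 2 was above every glucose library. The other glutamate dehydrogenase gene (PDE_06171) was the one called higher without replicate 2, with 488, 36.5 and 406 FPKM in cellulose, against 194, 139 and 38.5 FPKM in glucose (log2 fold change 1.75, adjusted p = 0.02). With replicate 3 alone it was not called (adjusted p = 0.0747), and 7 of the 10 genes were called lower and none higher.

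Iron and copper uptake genes were divided in the same way, with 1 exception. Their median ratio to the glucose mean was 0.0219 in cellulose replicates 1 and 3 and 0.915 in replicate 2. In 5 of them all 3 cellulose libraries were below all glucose libraries, beside 8.89% of all genes tested. Of 11 genes 1 rose and none fell with all libraries, beside 13.4% and 3.96% of all genes. Without cellulose replicate 2, 10 were called lower and 1 higher, beside 14.4% and 20.5% of all genes. With replicate 3 alone the median log2 fold change of the list was -6.21. The copper transporter gene PDE_05328 had 18.6, 1189 and 10.8 FPKM in cellulose, against 1637, 1775 and 2061 FPKM in glucose (log2 fold change -7.09 without replicate 2, adjusted p = 4.62e-06, edgeR). The ferric-chelate reductase gene PDE_08755, whose product reduces iron before uptake, had 11.7, 344 and 12.2 FPKM in cellulose, against 721, 741 and 598 FPKM in glucose (log2 fold change -5.96 without replicate 2, adjusted p = 5.64e-07). The siderophore-iron transporter gene PDE_06674 had 0.54, 112 and 0.23 FPKM in cellulose, against 20.0, 22.9 and 32.4 FPKM in glucose, so replicate 2 exceeded the glucose libraries here. The exception was the multicopper oxidase gene PDE_02128, annotated for iron transport, which had 141, 11.8 and 87.5 FPKM in cellulose, against 0.13, 0.39 and 0.26 FPKM in glucose. All 3 cellulose libraries of this gene were above the glucose libraries (log2 fold change 8.08, SE 0.960, adjusted p = 0.00116), and replicate 2 lay between the glucose libraries and the other cellulose libraries.

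**Figure D5:**
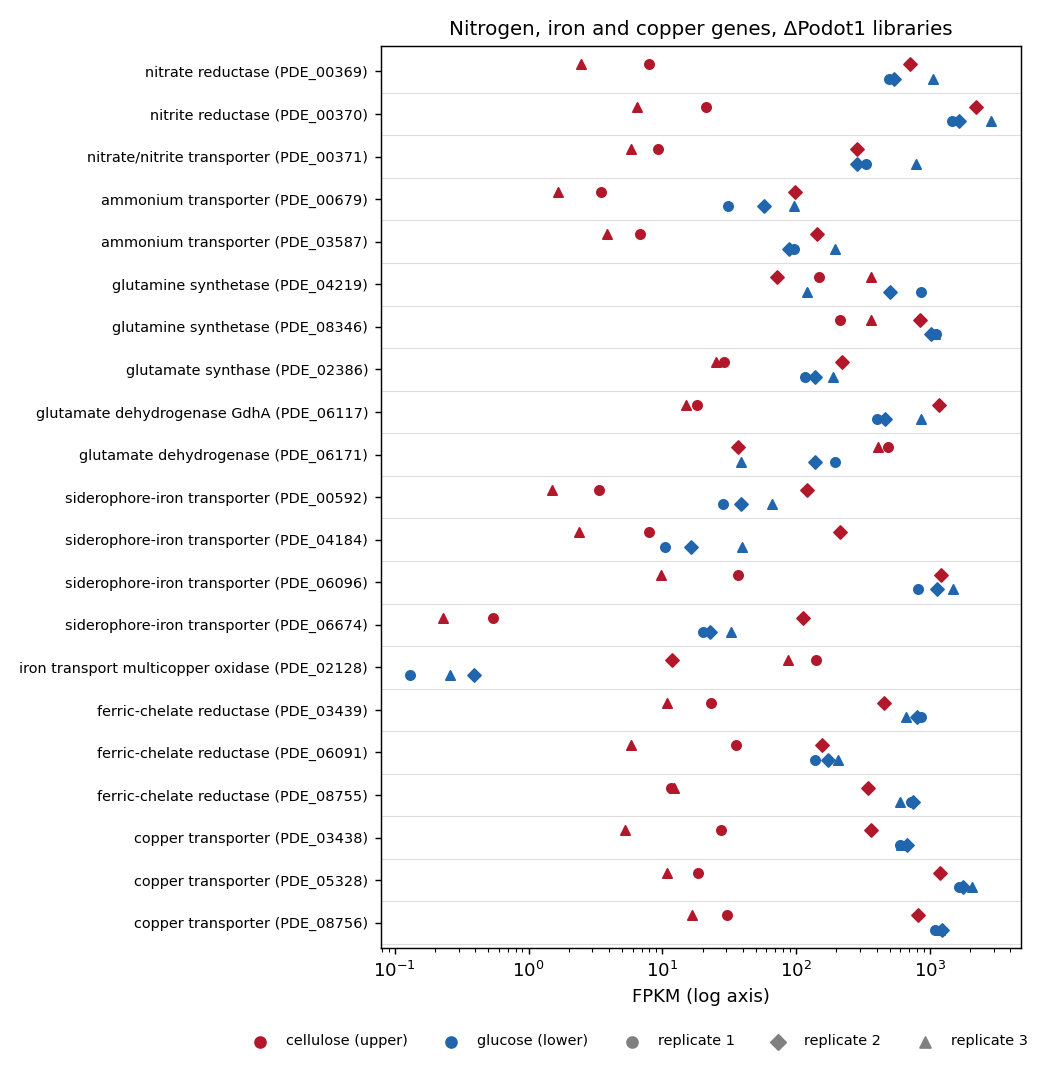
FPKM on a log axis of 10 nitrogen genes and 11 iron and copper genes in the 3 cellulose libraries (upper points) and the 3 glucose libraries (lower points), with the marker giving the replicate. The median ratio of cellulose replicate 2 to the glucose mean is 1.07 in the nitrogen genes and 0.915 in the iron and copper genes. It lies inside the glucose range in 3 and 2 of them, as in nitrite reductase with 2219 FPKM. In the multicopper oxidase gene, with 11.8 FPKM, it lies above the glucose libraries and below the other cellulose libraries.

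Several smaller lists had members that moved in opposite directions. Of 17 genes for chitin and fungal wall polysaccharides 4 rose and 1 fell, beside 13.4% and 3.96% of all genes. Without replicate 2 the counts were 5 higher and 4 lower, beside 20.5% and 14.4% of all genes. PDE_08250, a putative exo-β-1,3-glucanase, had 137, 4.71 and 74.1 FPKM in cellulose, against 3.85, 2.21 and 2.07 FPKM in glucose (log2 fold change 4.6, SE 1.19, adjusted p = 0.02, edgeR). PDE_05515, a putative β-1,3-glucanase, had 1239, 22.8 and 205 FPKM in cellulose, against 39.6, 31.9 and 14.9 FPKM in glucose (log2 fold change 3.96, SE 1.06, adjusted p = 0.0237), with replicate 2 inside the glucose range. The putative chitinase gene PDE_09532 fell, with 17.7, 39.8 and 31.7 FPKM in cellulose, against 160, 162 and 127 FPKM in glucose (log2 fold change -2.49, SE 0.339, adjusted p = 0.00131). Its decrease is opposite to the increase of the chitinase gene *chi18A*, and all 3 cellulose libraries took part in it.

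Septins are GTP-binding proteins that assemble where hyphae form cross-walls. The paper names septin genes *aspA* to *aspE*, of which not all are listed here. None of the 4 septin genes listed was called with all libraries by edgeR or DESeq2, and 1 had an unadjusted p under 0.05. Their log2 fold changes were 0.42 to 0.80, with adjusted p of 0.114 to 0.346 (edgeR). The *aspA* gene (PDE_09818) had 81.1, 42.0 and 74.9 FPKM in cellulose, against 32.2, 30.7 and 41.7 FPKM in glucose, and *aspB* (PDE_09187) had 170, 59.9 and 148 FPKM in cellulose, against 59.4, 59.5 and 77.7 FPKM in glucose. Both were called higher without replicate 2, with log2 fold changes of 1.03 and 1.15 and adjusted p of 0.0103 and 0.00668 (edgeR). Of all genes tested 20.5% were called so. The *aspC* gene (PDE_09456) had 69.2, 48.5 and 89.9 FPKM in cellulose, against 45.0, 41.1 and 53.4 FPKM in glucose, and PDE_06826 had 86.4, 55.2 and 133 FPKM in cellulose, against 60.9, 51.5 and 57.7 FPKM in glucose. With replicate 3 alone the log2 fold changes of the 4 genes were 0.85 to 1.13. In all 4 genes replicates 1 and 3 were above the 3 glucose libraries, as they were in 35% of all genes tested.

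Tyrosine degradation leads through homogentisate to fumarate and acetoacetate. Of its 6 genes 1 rose and 3 fell, beside 13.4% and 3.96% of all genes. Without replicate 2, 1 was called higher and 4 lower, beside 20.5% and 14.4% of all genes. With replicate 3 alone the median log2 fold change of the list was -1.85. The 2 genes annotated as 4-hydroxyphenylpyruvate dioxygenase, the second step, moved in opposite directions. PDE_09761 had 12.1, 36.1 and 3.77 FPKM in cellulose, against 445, 465 and 553 FPKM in glucose (log2 fold change -5.02, SE 0.759, adjusted p = 0.00208, edgeR). PDE_08904 had 183, 429 and 95 FPKM in cellulose, against 31.3, 37.5 and 77.1 FPKM in glucose (log2 fold change 2.06, SE 0.561, adjusted p = 0.0253). Neither gene overlapped between the media, and in PDE_08904 replicate 2 was the highest library. This gene was called without replicate 2 (log2 fold change 1.36, adjusted p = 0.0404) but not with replicate 3 alone (0.85, adjusted p = 0.291). Fumarylacetoacetase (PDE_08907), the last step, had 136, 155 and 63.0 FPKM in cellulose, against 505, 496 and 205 FPKM in glucose (log2 fold change -1.93, SE 0.448, adjusted p = 0.0123).

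The conidial pigment genes, whose products colour the asexual spores, had raised levels in the libraries with *Podot1* reads. All 3 genes were called higher with all libraries, beside 13.4% of all genes tested. The summed level of the 3 was 29.5, 24.0 and 0.59 FPKM in cellulose replicates 1, 2 and 3, against 0.69, 0.74 and 0.59 FPKM in glucose. The polyketide synthase gene (PDE_09237), for the first step of the pigment, had 15.3, 5.17 and 0.22 FPKM in cellulose, against 0.14, 0.14 and 0.05 FPKM in glucose (log2 fold change 5.78, SE 1.14, adjusted p = 0.00568, edgeR). Scytalone dehydratase (PDE_09236), a later step, had 5.41 and 6.70 FPKM in cellulose replicates 1 and 2 and no listed value in replicate 3, against 0.24 FPKM in 1 glucose library and no listed value in the others. Its counts were 50 in cellulose and 1 in glucose, a depth-scaled ratio of 50.5 (exact 95% limits 8.65 and 2033). With replicate 3 alone none of the 3 genes was called by edgeR, and none had an unadjusted p under 0.05. The part of the *Podot1* reads in this increase was not tested. In WT the summed level was 370, 914 and 1394 FPKM in cellulose, against 2.75, 1.01 and 2.44 FPKM in glucose.

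Of 16 phosphate acquisition genes 2 rose and 1 fell, shares near those of all genes tested (13.4% and 3.96%). An alkaline phosphatase gene (PDE_04767) had 94.3, 11.4 and 96.7 FPKM in cellulose, against 8.96, 12.5 and 5.25 FPKM in glucose (log2 fold change 2.80, SE 0.747, adjusted p = 0.0232, edgeR). An acid phosphatase gene (PDE_01372) had 23.7, 6.30 and 5.99 FPKM in cellulose, against 1.90, 2.89 and 2.76 FPKM in glucose (log2 fold change 2.09, SE 0.490, adjusted p = 0.0129). The phosphate transporter gene PDE_05309 had 21.5, 45.0 and 31.7 FPKM in cellulose, against 143, 138 and 98.2 FPKM in glucose (log2 fold change -2.11, SE 0.371, adjusted p = 0.00362). The last 2 did not overlap between the media. Without replicate 2 the list had 3 genes called higher and 7 lower, beside 20.5% and 14.4% of all genes. Its median log2 fold change was then -0.71, while it was 0.34 with all libraries and -0.91 with replicate 3 alone.

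Of 10 sterol synthesis genes 1 rose and none fell with all libraries, beside 13.4% and 3.96% of all genes. Without cellulose replicate 2, 1 was called higher and 7 lower, beside 20.5% and 14.4% of all genes. The median log2 fold change of the list was -1.54 without replicate 2 and -1.64 with replicate 3 alone. A sterol 24-C-methyltransferase gene (PDE_05198), for a step specific to ergosterol, was the one that rose, with 89.4, 17.1 and 41.9 FPKM in cellulose, against 14.1, 14.6 and 8.45 FPKM in glucose (log2 fold change 1.86, SE 0.594, adjusted p = 0.0482, edgeR). Methylsterol monooxygenase (PDE_05808) had 119, 3159 and 221 FPKM in cellulose, against 1524, 2431 and 3078 FPKM in glucose (log2 fold change -3.91 without replicate 2, adjusted p = 3.04e-04). None of the 8 heat shock and chaperone genes was called with all libraries by edgeR or DESeq2, with 1 at an unadjusted p under 0.05. Without replicate 2, beside 14.4% of all genes, 1 of these 8 was called lower. Their levels differed between cellulose replicates 1 and 3, as in an HSP20 family gene (PDE_02505) with 2529, 655 and 66.2 FPKM in cellulose, against 288, 678 and 1001 FPKM in glucose. None of the 7 peptidase genes was called with all libraries by edgeR, with 1 at an unadjusted p under 0.05 and 1 called lower by DESeq2. Without replicate 2, beside 14.4% of all genes, 1 of these 7 was called lower. Of 14 genes for proteins that co-purified with *Po*Dot1, 1 was called lower with all libraries, beside 3.96% of all genes, 5 without replicate 2, GdhA and pyruvate decarboxylase among them, beside 14.4%, and 4 with replicate 3 alone, beside 13.7%. The gene called with all libraries was tyrosyl-tRNA synthetase (PDE_00455), which charges tRNA with tyrosine, with 44.5, 92.4 and 37.2 FPKM in cellulose, against 242, 187 and 218 FPKM in glucose (log2 fold change -2.08, SE 0.329, adjusted p = 0.00254).

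The largest decreases without overlap between the media lay in genes with neighbouring locus tags. Of 9 genes from PDE_01187 to PDE_01195, a run picked out after its values were seen, 8 were called lower with all libraries. Without replicate 2, 8 were also called lower. The shares of all genes were 3.96% and 14.4%. PDE_01190 was the exception (log2 fold change -0.63, adjusted p = 0.1, edgeR). The next tag, PDE_01196, was also called lower, by a smaller change (log2 fold change -1.92, adjusted p = 0.0418, edgeR). PDE_01191, annotated as a hypothetical protein, had 23.6, 75.5 and 16.4 FPKM in cellulose, against 3594, 2381 and 1799 FPKM in glucose (log2 fold change -6.26, SE 0.718, adjusted p = 0.00115, edgeR). PDE_01187, a multidrug transporter of the major facilitator superfamily, had 20.2, 29.5 and 19.5 FPKM in cellulose, against 2265, 1305 and 1121 FPKM in glucose (log2 fold change -6.24, SE 0.479, adjusted p = 7.22e-05). PDE_01191 and PDE_01187 were chosen for the absence of overlap, so replicate 2 lay below the glucose libraries by the choice. How far below was not fixed. In these genes its level was nearer to the other cellulose libraries than to the glucose libraries. PDE_01188, similar to a spore wall maturation protein, had the most negative log2 fold change among the called genes, with 3.76, 6.03 and 1.10 FPKM in cellulose, against 367, 238 and 328 FPKM in glucose (log2 fold change -6.60, SE 0.834, adjusted p = 0.00117).

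In the same run, PDE_01195 had 22.9, 42.0 and 5.78 FPKM in cellulose, against 1684, 950 and 1247 FPKM in glucose. PDE_01189, annotated as a phosphatase, had 1.93, 2.81 and 0.55 FPKM in cellulose, against 114, 76.2 and 93.8 FPKM in glucose. PDE_01194, annotated as a glutathione S-transferase, differed in that replicate 2 kept more of its transcript, with 22, 595 and 17.1 FPKM in cellulose, against 7164, 5297 and 4665 FPKM in glucose (log2 fold change -4.98, SE 1.26, adjusted p = 0.0184, edgeR). Outside the run, PDE_05892 had 1.52, 5.41 and 0.51 FPKM in cellulose, against 155, 119 and 30.5 FPKM in glucose, with a log2 fold change of -5.47. Replicate 2 had the highest cellulose level in each of these 4 genes.

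The largest increases without overlap were in genes nearly absent from the glucose libraries. PDE_00796 had 28.4, 2.14 and 14.1 FPKM in cellulose, with no listed value in any of the 3 glucose libraries. PDE_02125 had 119, 8.45 and 97.1 FPKM in cellulose, against 0.29 FPKM in 1 glucose library and no listed value in the others. Its 751 counts in cellulose and 1 in glucose give a depth-scaled ratio of 758 (exact 95% limits 136 and 29988). PDE_06609 had 554, 1.82 and 316 FPKM in cellulose, against 0.99, 0.46 and 0.93 FPKM in glucose (log2 fold change 8.33, SE 1.58, adjusted p = 0.00503, edgeR). In these 3 genes replicate 2 lay above glucose, which the choice of genes without overlap required, and far below replicates 1 and 3. PDE_10003 and PDE_10005 had 94.2, 2.15 and 71.2 FPKM and 136, 2.17 and 96.3 FPKM in cellulose, against at most 0.25 and 0.41 FPKM in glucose. PDE_03620 had 83.5, 5.52 and 10.8 FPKM in cellulose, against at most 0.11 FPKM in glucose. Replicate 2 came nearer to replicate 3 in this gene and in PDE_00807, which had 34.4, 8.65 and 16.5 FPKM in cellulose, against at most 0.11 FPKM in glucose. PDE_01429 had 56.4, 2.01 and 21.8 FPKM in cellulose, against at most 0.18 FPKM in glucose. These 8 genes are hypothetical or carry no annotation in the sources used here.

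Of the genes called without replicate 2 and with that replicate inside the glucose range, 427 higher and 379 lower averaged at least 10 FPKM. This mean was taken in the medium with the higher level, without replicate 2. The next genes were chosen from these, so that their values describe the choice. The increases were led by PDE_06610, with 988, 2.15 and 366 FPKM in cellulose, against 0.82, 2.95 and 2.21 FPKM in glucose. It was followed by *chi18A* and by PDE_09098, which had 934, 5.67 and 1195 FPKM in cellulose, against 3.54, 5.73 and 4.36 FPKM in glucose. PDE_07660 had 22.4 and 30.5 FPKM in cellulose replicates 1 and 3 and no listed value in the other 4 libraries, and PDE_07353 had 135, 0.81 and 80.1 FPKM in cellulose, against 0.52, 0.21 and 0.81 FPKM in glucose. The decreases were led by PDE_05937, with 2.22, 241 and 1.02 FPKM in cellulose, against 195, 240 and 362 FPKM in glucose. Nitrate and nitrite reductase were also among the 5 largest decreases. PDE_01480, annotated as an oleate hydratase, had 10.2, 1162 and 6.59 FPKM in cellulose, against 1010, 1188 and 1618 FPKM in glucose, and PDE_00327 had 18.8, 1693 and 6.81 FPKM in cellulose, against 1512, 1577 and 1735 FPKM in glucose.

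Several of the most abundant transcripts also changed with the medium. PDE_09832, annotated as a structural component of the cell wall, had 25539, 116 and 19437 FPKM in cellulose, against 121, 93.2 and 147 FPKM in glucose (log2 fold change 6.83, SE 1.42, adjusted p = 0.00718, edgeR). PDE_09166 had 15162, 54.0 and 18973 FPKM in cellulose, against 48.1, 31.3 and 51.4 FPKM in glucose (log2 fold change 7.90, SE 1.51, adjusted p = 0.00509). PDE_05881 and PDE_05882 had 6741, 171 and 6869 FPKM and 6175, 213 and 6450 FPKM in cellulose, against 112, 145 and 173 FPKM and 115, 132 and 175 FPKM in glucose. These 4 genes were among the 5 with the highest mean level in cellulose, and in each of them replicate 2 was near the glucose level. In glucose the leading genes included PDE_00621, with 2585, 3776 and 2873 FPKM in cellulose, against 8126, 12651 and 12910 FPKM in glucose (log2 fold change -2.04, SE 0.540, adjusted p = 0.0224). PDE_07106 had 1011, 4528 and 414 FPKM in cellulose, against 9461, 9661 and 10405 FPKM in glucose (log2 fold change -2.52, SE 0.743, adjusted p = 0.0354). PDE_02650 was among the leading 5 in both media, with 3757, 5349 and 4422 FPKM in cellulose, against 7690, 8579 and 5877 FPKM in glucose, with no call (log2 fold change -0.87, adjusted p = 0.191). Nor was PDE_02596, another of the leading glucose genes (log2 fold change -0.79, adjusted p = 0.313).

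Cellulose replicate 2 also held transcripts far above those of the other 5 libraries labelled Δ*Podot1*. It exceeded the highest of these 5 by at least 10-fold, with a level of at least 10 FPKM, in 8 genes. PDE_06461 had 0.72, 52.1 and 0 FPKM in cellulose, against 0.42, 0.42 and 0.84 FPKM in glucose, which made replicate 2 62.0 times the next library. PDE_06749 had 2.45, 146 and 0.55 FPKM in cellulose, against 2.69, 0 and 0.53 FPKM in glucose. PDE_06045 and PDE_06048 had 14.2 and 67.4 FPKM in replicate 2, against at most 0.28 and 1.92 FPKM in the other 5 libraries. In WT glucose the means of PDE_06461, PDE_06749, PDE_06045 and PDE_06048 were 11, 0.293, 1.99 and 0.707 FPKM. In WT cellulose they were 0.0567, 0.337, 0 and 2.43 FPKM. The values of replicate 2 describe a single library, and no test was made.

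The response of the libraries labelled Δ*Podot1* was compared with that of WT through the difference between the 2 media responses. Of 9088 genes tested 153 (1.68%) were called, 54 (0.594%) with a larger log2 fold change in the libraries labelled Δ*Podot1* and 99 (1.09%) with a smaller one (edgeR's interaction contrast, adjusted p under 0.05 and at least 2-fold). Without cellulose replicate 2 the number was 741 (8.11%), with 340 larger (3.72%) and 401 smaller (4.39%). Leaving out each of the 12 libraries in turn gave 20 to 741, with the lowest count without WT glucose replicate 2, so the number rests on single libraries of both strains. Among the 10 glycoside hydrolase genes *amy15A* was the only one called with all libraries (difference -4.94, adjusted p = 0.0479). Its mean in cellulose was 334 FPKM for the label Δ*Podot1* and 13880 FPKM for WT, and in glucose it was 43 FPKM for Δ*Podot1* and 57.9 FPKM for WT. Without replicate 2 the difference was called for *amy15A* (-4.43, adjusted p = 0.00207), *amy13A* (-4.01, adjusted p = 0.0028), *cel3A* (-2.51, adjusted p = 0.0266) and *cel61A* (-2.27, adjusted p = 0.0397). The summed level of the 10 genes in cellulose was 13287, 218 and 16076 FPKM for the label Δ*Podot1*, against 34018 to 40652 FPKM for WT. In WT glucose it was 124 to 173 FPKM.

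In other lists the difference from WT also reached both directions without replicate 2. Most lists were taken from genes that differed between the strains in these same libraries, so these counts are no independent evidence. In tyrosine degradation 3 of 6 genes had a smaller log2 fold change in the libraries labelled Δ*Podot1* with all libraries, beside 1.09% of all genes. Without replicate 2 all 6 had, beside 4.39% of all genes. One of them was PDE_09761 (-5.07, adjusted p = 0.00293, edgeR), which fell further than in WT. In sugar transport none of 15 genes was called with all libraries by edgeR or DESeq2, with 4 at an unadjusted p under 0.05. Without replicate 2, beside 3.72% of all genes, 4 had a larger log2 fold change. These included the cellodextrin transporter genes *cdt-g* (PDE_09395; 3.12, adjusted p = 0.00962) and PDE_00753 (2.51, adjusted p = 0.0175). For *cdt-c* the difference was 1.67 without replicate 2 and was not called (adjusted p = 0.106). None of the 24 respiratory chain genes was called in either edgeR fit, but 21 had an unadjusted p under 0.05 with all libraries and 16 without replicate 2, and DESeq2 called 8 as larger with all libraries.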

How the data were processed

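The authors deposited, for each library, the estimated count of reads per gene (not normalised) and the FPKM per gene. Per the paper, reads from a BGISEQ platform were aligned with HISAT and Bowtie2, whereas the labels describe tag profiling; the sources used here give no versions and no strand setting. The labels give a preculture of 24 h, from which the paper differs. Estimated counts, of which 0.713% were not whole, were rounded. Total counts were 4607764 to 7081689 over the 12 libraries, and this depth sets counting error. Of 9909 genes listed, those passing filterByExpr were fitted over all 12 libraries with 1 mean per group by the edgeR 4.0.16 quasi-likelihood test with TMM scaling (R 4.3.3), and p-values were adjusted over all genes tested by Benjamini-Hochberg. A gene was called at an adjusted p under 0.05 and at least 2-fold. The SE was derived from the log2 fold change and the F statistic. Alternatives used DESeq2 1.42.0, limma 3.58.1 on log2(FPKM + pseudocount), other scalings, filters and libraries. Scripts were tested on simulated data. There edgeR recovered 5% of 2-fold and 58% of 4-fold changes, and 12.5% of its calls fell on unchanged genes. For DESeq2 these values were 18%, 81% and 30.8%. For edgeR without cellulose replicate 2 they were 0%, 35% and 10.3%.

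The genes and lists were chosen with earlier results of these data known. Most lists come from the paper's annotated tables of genes that differed between the strains in these libraries, and are no independent evidence. Named were *Podot1*, the 10 glycoside hydrolases, up to 2 called genes per direction and list and all listed septins. Also named were the 8 largest changes each way without overlap at a mean of at least 10 FPKM and the 5 each way with replicate 2 inside the glucose range. The 5 most abundant genes per medium and 4 genes high in replicate 2 were added. PDE_03711, PDE_03140, PDE_04873, PDE_08701, PDE_06117, PDE_06171, PDE_05328, PDE_08755, PDE_06674, PDE_05808, PDE_02505, PDE_09395, PDE_00753 and the run from PDE_01187 to PDE_01195 were picked after their values were seen. Replicate numbers did not pair the libraries.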

Additional observations from a re-analysis of the deposited data

Results flagged for a closer look

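The response to cellulose medium under the label Δ*Podot1* was set against that of WT by edgeR's test of the difference itself. With all libraries it differed in 1 of the 10 main extracellular glycoside hydrolase genes, where 1.68% of all genes were called. Without cellulose replicate 2 it differed in 4 of the 10, where 8.11% of all genes were called. Of all genes 4.39% then had a difference below 0, which takes in genes that fell further under the label as well as genes that rose less. For the glucoamylase gene *amy15A* (PDE_09417) the log2 fold change was smaller under the label Δ*Podot1* with all libraries (difference -4.94) and without cellulose replicate 2 (-4.43). For the α-amylase gene *amy13A* (PDE_01201), the β-glucosidase gene *cel3A* (PDE_02736) and the monooxygenase gene *cel61A* (PDE_05633) it was smaller without that replicate, by differences of -4.01, -2.51 and -2.27. Cellulose replicate 1, with *Podot1* reads, is part of each value, and its share in them was not tested.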

How the results depend on the processing

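For cellulose against glucose, 1575 genes were called, 1215 higher and 360 lower. Leaving out 1 library in turn gave 818 to 3185 in all, 653 to 1870 higher and 154 to 1315 lower, with every highest count without cellulose replicate 2. With 2 alternatives chosen after seeing the data, DESeq2 without replicate 2 gave 3331 (1936 higher, 1395 lower), and cellulose replicate 3 alone gave 2824 (1263 lower). The 6 libraries of the strain alone gave 163 (124 higher, 39 lower), and 2879 (1258 lower) without replicate 2. limma on log2(FPKM + 10) gave 604 (371 higher, 233 lower), a minimum mean of 10 FPKM 971 (682 higher), and the paper's thresholds, applied anew, 657 (445 higher, 212 lower). With a replicate block the count was 887 (639 higher). Libraries of one number share only that number, and their deviations correlated at 0.027, -0.073 and -0.178. DESeq2, relative-log factors, scaling by total, no filter and limma with smaller pseudocounts stayed within 1.5 times the count in all (1396 to 2016). Scaling by total moved the median log2 fold change of all genes to 0.24, against 0.07.

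For the difference from WT, 153 genes were called (54 above 0, 99 below). DESeq2 gave 855 (460 above, 395 below), the replicate block 22 (5 above, 17 below), and leaving out 1 library 20 to 741 in all, 7 to 340 above and 13 to 401 below. Of 75 named genes tried, 63 were called with all libraries and 13 of these under every alternative. In replicate 3 alone the sign turned for PDE_07484 (-3.06) and PDE_09236 (-1.78), neither called. The cause of these shifts was not tested. Depth limits genes with few reads in glucose, such as PDE_02125, where counting error alone leaves wide limits.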
